A study of Mus musculus with 2 samples.

Results

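The cells described here are 230 of the 9747 barcodes of a mouse tumour pool, taken as CD8 T cells that carry transcripts of effector genes. A barcode had to hold at least 500 genes, under 15% mitochondrial UMIs (unique molecular identifiers, each standing for 1 captured transcript) and at most 1 UMI of the keratins Krt8 and Krt18. It also had to hold at least 2 UMIs of the T cell receptor genes Cd3d, Cd3e, Cd3g, Trbc1 and Trbc2 together, at least 1 of Cd8a and Cd8b1, at least 2 of Nkg7, Ccl5 and Gzmb, and none of Foxp3. Antibody tags marked 18 of the 230 as carrying more than 1 tag, and these were left out as doublets. The 212 effector CD8 T cells kept held 478119 UMIs, with a median of 1958.5 UMIs and 898.5 genes per cell and a range of 829 to 9844 UMIs. They were 2.68% of the 7919 kept cells (exact Clopper-Pearson 95% interval 2.33 to 3.06) and 24.6% of the 863 kept T cells (21.7 to 27.6).

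The study, whose title concerns ACSS2 inhibitors in triple negative breast cancer, put live tumour cells from 6 samples on 1 droplet lane, 4000 to 6000 cells from each. Of these, 3 had received vehicle and 3 the inhibitor, written ACSS2i. ACSS2 makes acetyl-CoA from acetate. Both libraries of the pool, for expression and for antibody tags, carry the strain label NGS mouse and the tissue label tumor, and all 6 samples share these. The sources used here state no dose, duration, tumour model or age, and the design text names Bmal1 status, which no sample label gives. The antibody tags D0, D1, D4, U2, U3 and U4 carry no arm in these sources, so they are described as 6 samples of unknown arm and no comparison of inhibitor with vehicle was made. All cells ran in 1 lane and were chosen by genes of the same library, so the differences between gates below are descriptions without a test. Intervals cover counting error only.

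CD8 T cells recognise peptides held by MHC class I molecules through their T cell receptor and the CD8 coreceptor. On activation they fill granules with perforin and granzymes, which enter and kill the bound target, and they secrete interferon gamma and the chemokines CCL3, CCL4 and CCL5. In tumours, lasting contact with antigen is known to go with inhibitory receptors such as PD-1 (Pdcd1), LAG-3 (Lag3) and TIM-3 (Havcr2), whereas naive and memory cells keep the factors TCF1 (Tcf7), LEF1 and KLF2. Natural killer (NK) cells share the granule machinery but lack the CD3 chains.

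The genes of the rule describe the cells and support nothing further. Nkg7, a granule membrane protein, was seen in 94.8% of the cells, Ccl5 in 77.4% and Gzmb, granzyme B, in 43.4%. The 3 genes occurred together in 75 cells, and 120 cells (56.6%) held no Gzmb UMI at all. Cd8a was seen in 80.7%, Cd8b1 in 79.7% and Cd3e in 70.3%, and 211 of the 212 cells held a UMI of Cd3d, Cd3e or Cd3g. The sum of Nkg7, Ccl5 and Gzmb had a median of 13 UMIs and reached 162. Just inside the limit, 19 cells held exactly 2 such UMIs, 12 of them in tag U3. Just outside it, 38 CD8 T cells held 1 and 65 held 0. A single UMI of Cd8a and Cd8b1 admitted 40 cells, and 266 further T cells met the effector limit without a CD8 UMI.

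The cells were unevenly spread over the 6 tags. U2 held 103 of them, U3 and D1 held 32 each, D0 held 24, U4 14 and D4 7, so U2 alone gave 48.6% of the population. As a share of T cells of the same tag they were 44.2% in U2 (103 of 233, interval 37.7 to 50.8), 27.0% in D0 (18.1 to 37.4), 20.6% in D4 (8.70 to 37.9), 20% in U4 (11.4 to 31.3), 16.9% in D1 (11.9 to 23.1) and 13.0% in U3 (9.03 to 17.8). U2 lay above U3, U4, D0 and D1 by intervals that did not overlap, while the intervals of the other 5 tags overlapped one another, except those of U3 and D0. As a share of CD8 T cells without Foxp3 the order was different: 96.0% in D0, 94.5% in U2, 87.5% in U4, 86.5% in D1, 70.0% in D4 and 27.1% in U3 (19.3 to 36.1). U3 was the 1 tag in which most CD8 T cells stayed below the effector limit, and it held 86 of the 103 such cells. These shares rest on 1 sample per tag.

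**Figure D1:**
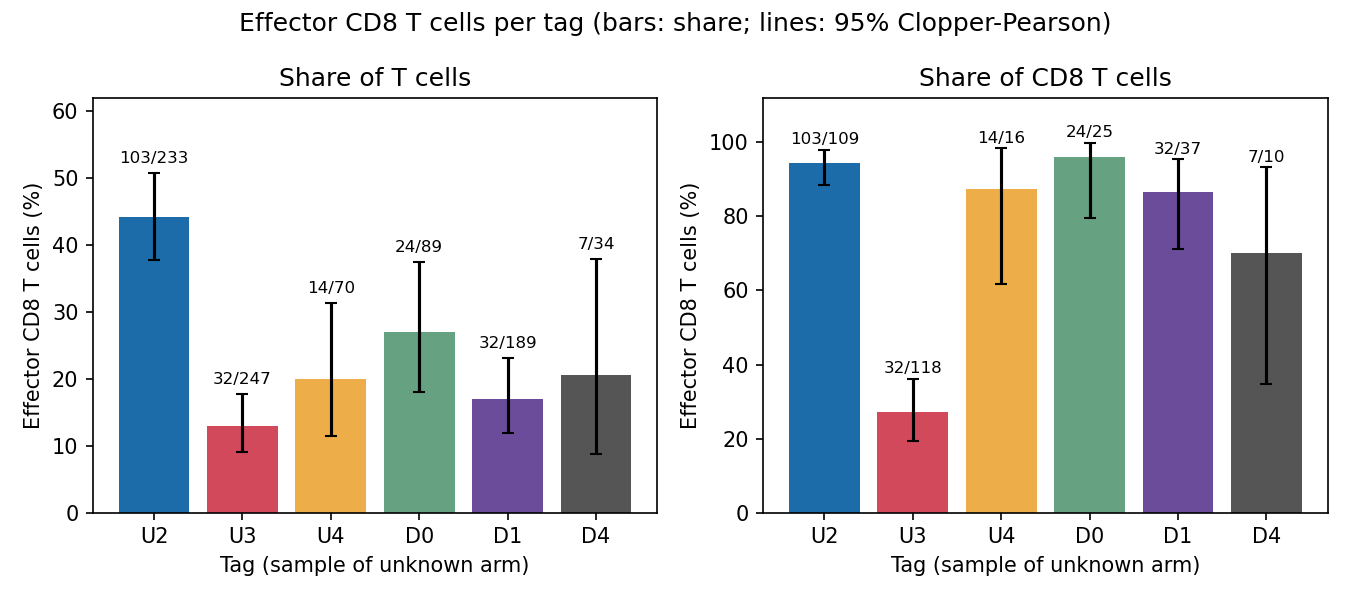
Effector CD8 T cells as a percent of all T cells (left) and of CD8 T cells without Foxp3 (right) in each of the 6 tags, with the cell counts above the bars; lines are exact Clopper-Pearson 95% intervals. U2 stands highest on the left at 44.2%, and U3 stands lowest on the right at 27.1%.

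The 32 cells of tag U3 met the rule but did not carry the profile of its name. Their Gzmb level was 57.0 CPM (the UMIs of a gene scaled to a common total of gene UMIs summed over the cells; here 4 UMIs), against 896 in D0, 1159 in U2, 1207 in D1, 1257 in D4 and 1447 in U4. U3 alone was low, and every other tag stood at 896 or more. Without U3 the Gzmb level was 1165 CPM, 20.4 times that in U3 (counting interval 7.93 to 75.4). Ccl3 was at 0 UMIs in U3, which against the limit of 3 UMIs makes the other tags together at least 10.6-fold higher, although the 7 cells of D4 held none either. Pdcd1 stood at 14.2 CPM in U3 and between 228 and 335 in the other 5 tags. Ifng stood at 71.2 in U3 and between 199 and 612 elsewhere.

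The opposite held for genes of resting T cells. Klf2, which keeps T cells in circulation, stood at 1609 CPM in U3, 378 in D0, 161 in U4, 147 in D1, 107 in U2 and 0 in D4. U3 was 10.8 times the other tags together (7.81 to 14.9). Tcf7 stood at 313 CPM in U3 and at 119 or less elsewhere, and Lef1 at 228 against 80.4 or less. S1pr1, the receptor for exit from lymph nodes, was 13.6 times higher in U3 (4.89 to 43.0). The other T cells of U3 shared this: their Klf2 level was 2011 CPM, against 56.1 to 468 in the other T cells of the other tags.

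Within U3, the 32 cells above the effector limit and the 86 CD8 T cells below it also differed from each other. Ctsw, a granule protease, stood at 427 CPM in the 32 cells and 120 in the 86, a ratio of 3.55 (1.87 to 6.97), and Klrd1, the CD94 receptor chain, at 470 and 151. Klf2 stood at 1609 and 2950, a ratio of 0.55 (0.44 to 0.67), and Lef1 at 228 and 655. Xcl1, a chemokine for cross-presenting dendritic cells, was at 43 UMIs in the 32 cells and 0 in the 86, at least 27.1-fold higher. Not all granule genes shared this: Prf1 stood at 14.2 CPM and 45.2, a ratio of 0.32 (0.007 to 2.60). Gzmc had 0 UMIs and 5, and the Cst7 ratio was 2.13 (0.73 to 6.34). The U3 cells thus stood below the other tags in Gzmb and above the low CD8 T cells of their own tag in Ctsw, Klrd1 and Xcl1, but not in Prf1 or Gzmc. Because U3 stands apart, values without it are given below for many of the genes named, and counts over gene lists include it.

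**Figure D2:**
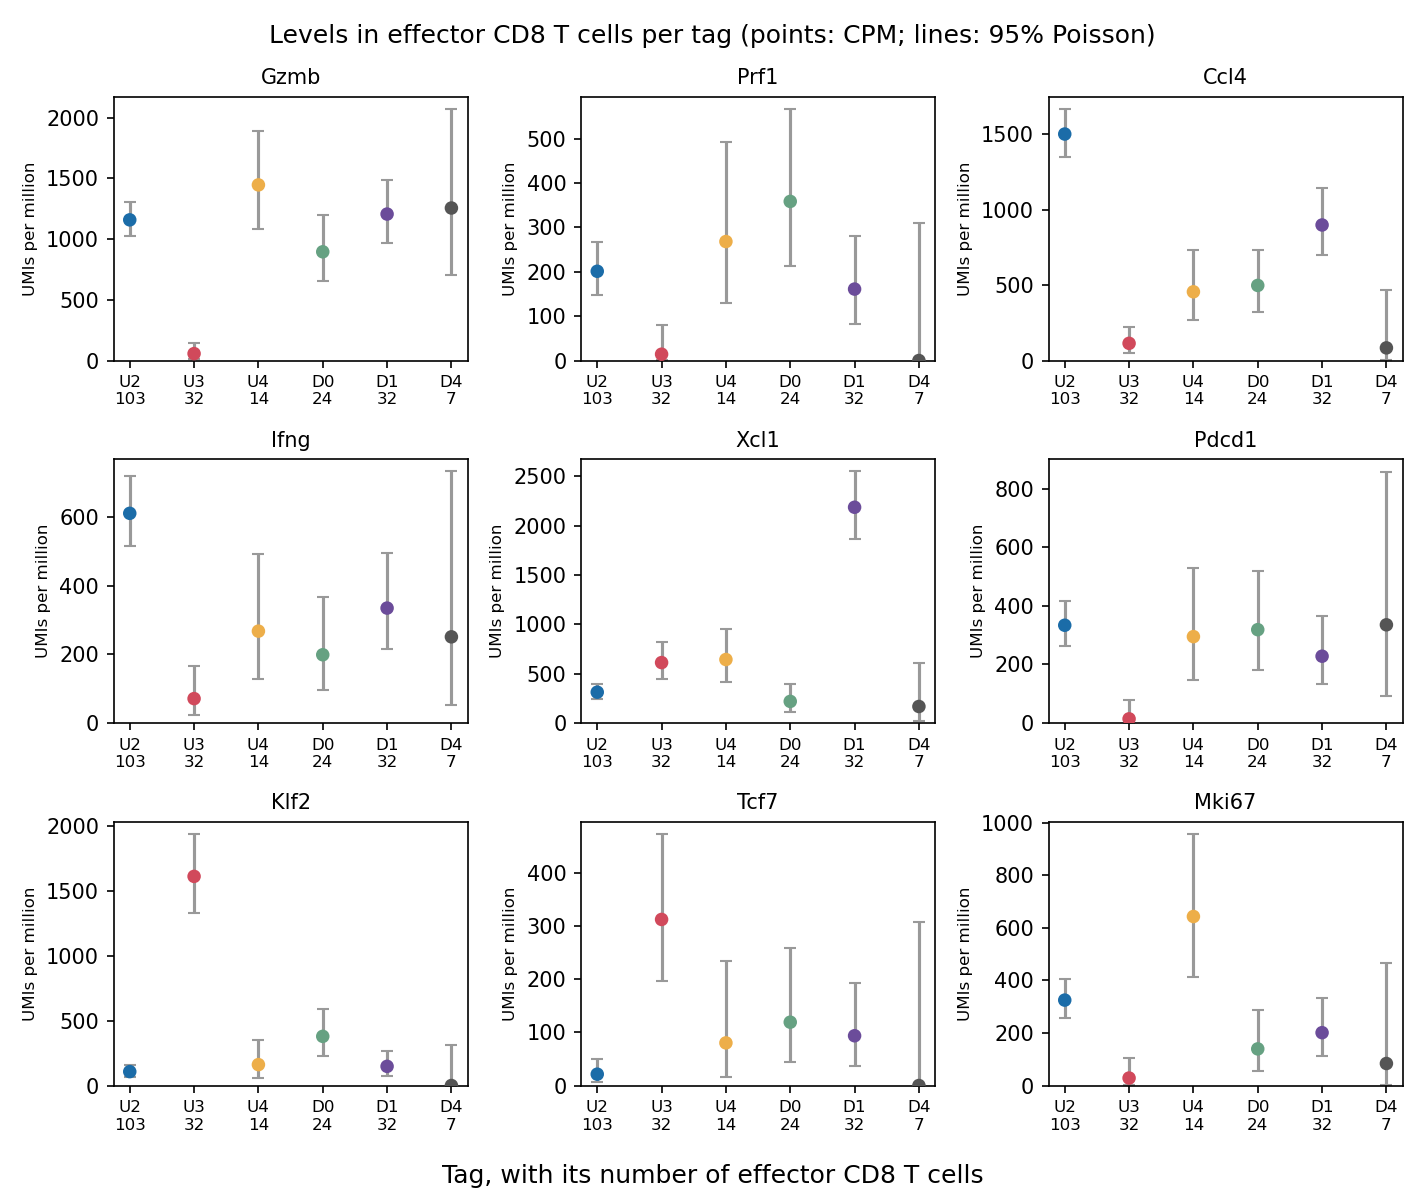
Levels of 9 genes in effector CD8 T cells of each tag, in CPM, with the number of cells under the tag name; lines are exact Poisson 95% intervals. U3 stands lowest for Gzmb and Pdcd1 and highest for Klf2 and Tcf7, while Xcl1 stands highest in D1.

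The cells were set beside 2 neighbouring populations named by the same kind of gate. The other T cells are 720 barcodes, 651 without doublets, and the NK cells are 40 barcodes, 37 without doublets, with a T cell receptor gene sum of at most 1 and at least 2 UMIs of Ncr1, Klrb1c and Klre1. The other T cells were mixed: 104 of the 651 held no UMI of Cd3d, Cd3e or Cd3g and passed through Trbc1 or Trbc2, and 105 held at least 2 UMIs of the 3 NK genes. Of the effector CD8 T cells, 30 held at least 2 UMIs of these NK genes. A stricter set of 500 other T cells with a CD3 chain and no UMI of the 3 NK genes, chosen after the levels were seen, is called CD3-positive other T below. The 115 NK cells with no CD3 chain and any Trbc level, chosen likewise, are called the wider NK set. It holds the 37 NK cells and 78 of the other T cells. The 103 CD8 T cells below the effector limit are a part of the 651 other T cells and are also shown apart. Of these 103 cells, 86 came from U3.

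A gene counted as higher or lower when its CPM differed at least 2-fold, among genes with at least 30 UMIs over both populations. Against other T cells, 136 of 6106 genes were higher (2.23%) and 418 lower (6.85%), with a median ratio of 0.99 over all genes. Against CD3-positive other T cells, 160 of 5203 were higher (3.08%) and 384 lower (7.38%), with a median ratio of 0.97. Against the NK cells, 282 of 2666 were higher (10.6%) and 113 lower (4.24%), median 1.05. Against the wider NK set, 254 of 3844 were higher (6.61%) and 154 lower (4.01%), median 1.08. Against CD8 T cells below the effector limit, 477 of 2837 were higher (16.8%) and 115 lower (4.05%), median 1.17. The rule used these contrasts, so the counts of gene groups below are read only as descriptions beside these shares. A lower or higher level in a population can come from fewer cells with the transcript or from less of it per cell, which summed levels cannot tell apart.

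Among genes with at least 100 UMIs over both populations, the 10 with the highest ratio to other T cells were the rule genes Cd8a, Cd8b1 and Ccl5, together with Ccl3, Ccl4, Ifng, Rgs16, Cxcr6, Pdcd1 and Ifi214. Ifi214, an interferon-induced gene, stood at 113 CPM against 36.6. The 10 with the lowest ratio were Gzmc, Gzmd, Gzme, Gzmf, Gzmg, Cd4, Saa3 and the collagens Col1a1, Col1a2 and Col12a1. Col1a2 had 1 UMI in the effector CD8 T cells and 479 in other T cells. Against NK cells the highest were the receptor and coreceptor genes Cd3d, Cd3e, Cd3g, Cd8a, Cd8b1, Trac and Trbc2, together with Cxcr6, Ccl3 and Lat. Lat, the adaptor that relays T cell receptor signals, stood at 243 CPM against 18.8 (2 UMIs). The lowest against NK cells were Gzma, Gzmc, Gzmf, Tyrobp, Fcer1g, Irf8, Ccr2, Apoe, Ifitm2 and Serpinb9. Apoe, a lipid carrier, stood at 96.2 CPM against 1074, but its ratio was 1.33 against NK cells with a T cell receptor gene sum of 0. Serpinb9, which shields killer cells from their own granzyme B, stood at 132 against 829.

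Among the 19 granule killing proteins, the effector CD8 T cells held transcripts of granzymes B, C and K and of perforin, and none of granzymes D and E. Granzymes C, D, E and G stood lower than in NK cells, whichever tag was left out where a value could be had. Gzmb stood at 1002 CPM (interval 914 to 1096), against 552 in CD3-positive other T cells and 2374 in NK cells. Prf1, perforin, which opens the target membrane, stood at 184 CPM against 23.0 and 443, and against 242 in all other T cells. In the tags, Prf1 stood at 358 CPM in D0, 268 in U4, 201 in U2, 161 in D1, 14.2 in U3 and 0 in D4. U3 and D4 were the low tags, and D4 held 7 cells only. Without U3, Prf1 was at 213 CPM and Gzmb was 1.39 times the CD3-positive other T cells rather than 1.81 times. Against all other T cells without U3, Gzmb stood lower, at a ratio of 0.79.

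Gzmk, granzyme K, was nearly all in these cells among T cells: 33 of its UMIs fell in 23 of the effector CD8 T cells and 2 in all 651 other T cells. Its level was 69.0 CPM against 1.41, a ratio of 49.0 (12.5 to 422), and no UMI was found in the 115 cells of the wider NK set. By tag it stood at 103 CPM in U2, 99.5 in D0, 40.2 in D1, 26.8 in U4 and 0 in U3 and D4. Gzmc, Gzmd, Gzme, Gzmf and Gzmg, showed the reverse. They lie in 1 cluster with Gzmb on the minus strand, from Gzme at chr14:56117626-56120625 to Gzmb at chr14:56258838-56262260 on GRCm38. Gzmd and Gzme had 0 UMIs in the effector CD8 T cells, which makes them at least 126-fold and 43.1-fold lower than in other T cells and at least 396-fold and 133-fold lower than in the wider NK set. Gzmc stood at 94.1 CPM in the effector CD8 T cells, 5002 in other T cells and 9063 in NK cells. Of its 45 UMIs, 46.7% came from 2 cells. For Gzmf the NK level rested on tag D0, without which its ratio to the 37 NK cells was 2.83 in place of 0.04.

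The call for this family turned with the T cells it was set beside. Against CD3-positive other T cells, with 32 Gzmc UMIs in 500 cells, Gzmc was 2.69 times higher (1.67 to 4.37) and not lower. Gzma stood at 20.9 CPM against 413 in all other T cells and 6.56 in the CD3-positive ones. For the whole list, 2 of 16 genes tested were higher and 6 lower than in other T cells, with a median ratio of 0.69. With CD3-positive other T cells, 8 of 11 were higher and none lower, with a median of 2.69. Against CD8 T cells below the effector limit, 10 of 11 were higher and none lower. Fas ligand (Fasl), the membrane route of killing, was called higher in each of these 3 settings, at 134 CPM against 63.3, 39.4 and 18.5, but without U3 its ratio to other T cells was 1.92, under 2-fold.

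**Figure D3:**
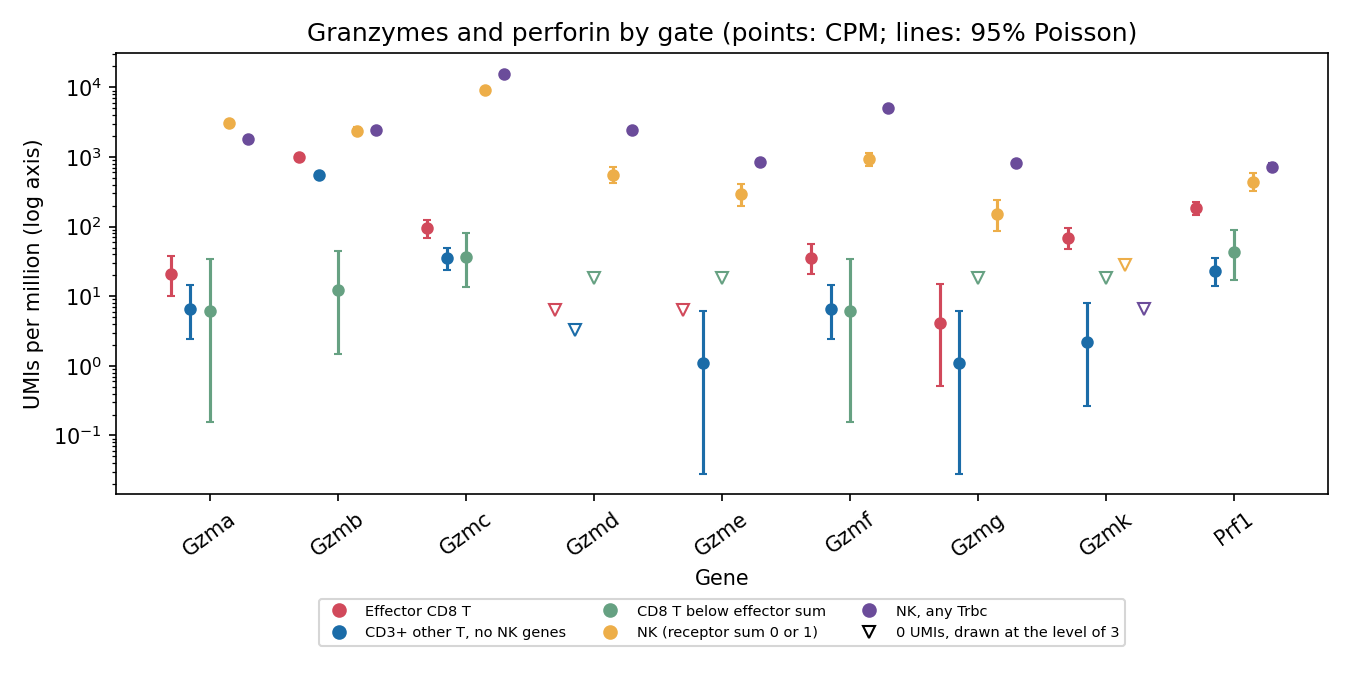
Granzymes and perforin in effector CD8 T cells and 4 comparison populations, in CPM on a log axis; lines are exact Poisson 95% intervals, and open triangles mark 0 UMIs, drawn at the level that 3 UMIs would give. Gzmd and Gzme are at 0 in effector CD8 T cells and at 556 and 292 CPM in NK cells, while Gzmk is at 69.0 CPM in effector CD8 T cells and at 0 in both NK sets.

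The promoters of 4 of these effector genes are printed because all 4 genes stood low in U3. Each run is the 250 bases before the RefSeq start of the gene on GRCm38.p6, read 5′ to 3′ on the strand of the gene. Capitals mark matches on either strand to the core motifs of RUNX factors (TGTGGT), T-box factors (AGGTGT) and AP-1 (TGANTCA). Gzmb lies on the minus strand at chr14:56262335-56262584.
Gzmb: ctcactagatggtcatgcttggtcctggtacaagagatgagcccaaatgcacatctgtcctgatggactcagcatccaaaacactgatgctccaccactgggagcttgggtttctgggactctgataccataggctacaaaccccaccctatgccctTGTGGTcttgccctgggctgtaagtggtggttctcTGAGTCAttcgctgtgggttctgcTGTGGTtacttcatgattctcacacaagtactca
Prf1 lies on the plus strand at chr10:61297586-61297835.
Prf1: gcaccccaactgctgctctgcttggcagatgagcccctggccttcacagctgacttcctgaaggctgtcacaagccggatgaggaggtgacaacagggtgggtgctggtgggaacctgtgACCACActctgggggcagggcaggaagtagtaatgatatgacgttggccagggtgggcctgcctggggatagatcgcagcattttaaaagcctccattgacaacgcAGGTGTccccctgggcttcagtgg
Ifng lies on the plus strand at chr10:118440796-118441045.
Ifng: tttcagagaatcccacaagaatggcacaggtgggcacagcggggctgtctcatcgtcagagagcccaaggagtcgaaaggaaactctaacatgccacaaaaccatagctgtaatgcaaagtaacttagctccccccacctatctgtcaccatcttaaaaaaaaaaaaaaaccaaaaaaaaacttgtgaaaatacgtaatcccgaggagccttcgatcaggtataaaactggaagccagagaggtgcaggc
Ccl3 lies on the minus strand at chr11:83649379-83649628.
Ccl3: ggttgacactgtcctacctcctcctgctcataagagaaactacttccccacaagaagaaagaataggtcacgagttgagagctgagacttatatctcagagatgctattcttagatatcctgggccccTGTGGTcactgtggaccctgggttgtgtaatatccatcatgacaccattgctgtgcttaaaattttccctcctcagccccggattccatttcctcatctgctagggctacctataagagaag
Gzmb held 2 RUNX matches and 1 AP-1 match, Prf1 held 1 RUNX and 1 T-box match, Ccl3 held 1 RUNX match, and Ifng held none of the 3. Of 32851 promoters of this length, 14.0% held the RUNX letters, 11.8% the T-box letters and 6.75% the AP-1 letters. The matches did not overlap one another, and a match is a description of letters, not of a bound factor.

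The chemokines Ccl3 and Ccl4 stood higher in these cells than in each comparison population. They draw monocytes and T cells, and they stood at 387 and 981 CPM, against 16.2 and 73.2 in other T cells and 28.3 (3 UMIs) and 245 in NK cells. The ratios to other T cells were 23.9 (15.5 to 38.7) and 13.4 (10.8 to 16.7), and without U3 they were 20.7 and 12.9. Without U2 the Ccl4 ratio was 7.89, and the Ccl3 ratio to NK cells was 3.80 in place of 13.7. The Ccl4 ratio to NK cells was 1.52 without U2 and 24.7 without D0. By tag, Ccl3 stood at 646 CPM in U2, 241 in U4, 219 in D0, 188 in D1 and 0 in U3 and D4. Ccl4 stood at 1501 in U2, 898 in D1, 498 in D0, 456 in U4, 114 in U3 and 83.8 in D4. U2 was the highest tag for both, and D4, with 7 cells, and U3 were the lowest. Ccl3 was seen in 42 of the 212 cells.

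Ifng, the cytokine that raises MHC class I on target cells, stood at 410 CPM (355 to 472) in the effector CD8 T cells, 97.8 in other T cells and 367 in NK cells. Its ratio to other T cells was 4.19, and 2.61 without U2. It was higher than in the CD3-positive other T cells of the same tag in each of the 4 tags with at least 20 effector CD8 T cells. None of its UMIs fell in the CD8 T cells below the effector limit, which makes them at least 22.2-fold lower. Most of those cells came from U3, and within U3 alone Ifng had 5 UMIs against 0, at least 3.15-fold higher. Xcl1 stood at 661 CPM and was seen in 49 cells, but 2 cells held 41.1% of its 316 UMIs. By tag it stood at 2186 CPM in D1, 643 in U4, 612 in U3, 312 in U2, 219 in D0 and 168 in D4. It stood at 1460 CPM in NK cells, a ratio of 0.45 that became 0.88 without U2 and 0.22 without D1. Csf2 (GM-CSF) had 3 UMIs and a ratio to other T cells of 0.20 (0.04 to 0.63), and Il2 had 1 UMI. Of the 8 genes of this list tested, 3 were higher and 1 lower than in other T cells, with a median ratio of 1.07. With CD3-positive other T cells, 4 were higher and 1 lower, with a median of 2.25.

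Inhibitory receptors and exhaustion genes formed the list with the largest share of higher genes against other T cells, 8 of 13 tested, with 1 lower and a median ratio of 2.28. Pdcd1 stood at 266 CPM (221 to 316) against 82.3 in other T cells, and it had no UMI in the 37 NK cells. By tag it stood at 335 CPM in D4, 334 in U2, 319 in D0, 295 in U4, 228 in D1 and 14.2 in U3, so all tags but U3 lay close together. Rgs16, a brake on G protein signalling, stood at 366 against 99.9, and Nr4a2, a nuclear receptor induced by T cell receptor signals, at 293 against 97.1. Lag3 stood at 113 against 47.9, Havcr2 at 75.3 against 33.1, though higher in only 2 of 4 tags, and Tox, a chromatin factor of chronically stimulated T cells, at 75.3 against 35.9. Cd160 stood at 107 CPM against 45.0. Ctla4 was the exception, at 161 CPM against 362, lower than other T cells in all 4 tags with at least 20 cells. Against CD8 T cells below the effector limit its direction turned, to 4.36 times higher, and all 11 list genes tested there were higher. With CD3-positive other T cells the list had 5 higher and 1 lower of 12, with a median of 1.72. Without U3, Pdcd1 was 2.77 times and Lag3 1.91 times other T cells. Without U2, Lag3 was 1.89 times and Rgs16 2.09 times, and without D1 the Ctla4 ratio was 0.57.

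Costimulatory receptors went mostly the other way: 2 of 10 were higher and 5 lower than in other T cells, with a median ratio of 0.52. Against CD8 T cells below the effector limit this turned, with 3 of 9 higher, none lower and a median of 1.55. Tnfrsf9 was then 2.29 times and Icos 1.24 times higher. Tnfrsf4 (OX40) stood at 132 CPM against 702, a ratio of 0.19 (0.14 to 0.24), or 0.17 without U3. Icos stood at 213 against 445 and Tnfrsf9 (4-1BB) at 253 against 557, and each of the 3 was lower in all 4 tags with at least 20 cells. Cd40lg, the helper cell signal to antigen-presenting cells, had 0 UMIs, at least 6.84-fold lower. The higher members were Slamf7, at 132 against 49.3, and Cd226, an activating partner of NK and CD8 T cells, at 153 against 73.9. The Cd226 ratio of 2.07 fell under 2 without U2, U3 or D1 (1.98, 1.99 and 1.98), and the Icos ratio of 0.48 was 0.53 without D0 and 0.50 without D1. The 69 Foxp3-positive T cells and 81 Cd4-positive T cells lie in the comparison population, and their part in this was not tested.

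**Figure D4:**
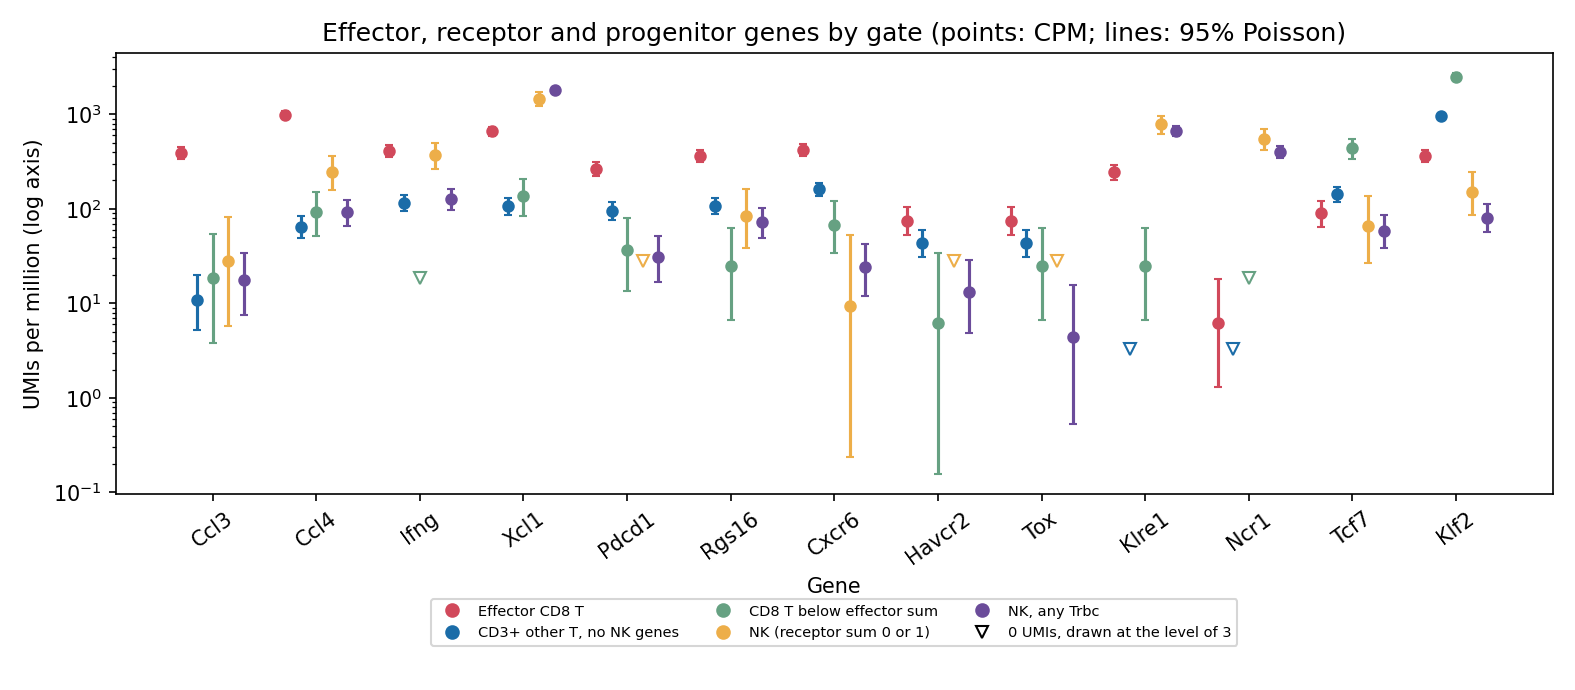
Effector, inhibitory, NK receptor and resting-state genes in effector CD8 T cells and 4 comparison populations, in CPM on a log axis; lines are exact Poisson 95% intervals, and open triangles mark 0 UMIs, drawn at the level that 3 UMIs would give. Ccl3 and Ccl4 stand highest in effector CD8 T cells, at 387 and 981 CPM, and Klf2 stands highest in CD8 T cells below the effector limit, at 2479 CPM.

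Transcription factors changed less. Of 13 effector and residency factors, 2 were higher and 2 lower than in other T cells, with a median ratio of 1.10. Zeb2, a factor of terminal effector cells, stood at 157 CPM against 63.3, and Ikzf3 at 125 against 47.8. Maf stood at 18.8 against 316 and Irf8 at 105 against 327. For Irf8 the direction turned against CD3-positive other T cells, where it stood at 31.7 CPM. Eomes and Tbx21, the T-box factors of cytotoxic lymphocytes, stood at 43.9 and 39.7 CPM, and Eomes at 179 in NK cells. Zfp683, the residency factor Hobit, had 1 UMI.

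Genes of naive, memory and progenitor cells were lower or not different by the 2-fold rule: 4 of 13 were lower than in other T cells and none higher, with a median ratio of 0.57. Il7r, the interleukin 7 receptor, stood at 153 CPM against 335, and it was lower in all 4 tags with at least 20 cells, although its ratio of 0.46 was 0.51 without U2. Klf2 stood at 364 against 680 and Tcf7 at 89.9 against 122. Both levels depended on U3, without which Klf2 was at 150 CPM and Tcf7 at 51.5. With U3 left out of the other T cells too, the ratios were 0.71 for Klf2 and 0.90 for Tcf7, both within 2-fold. The summed level of the list was 4029 CPM in U3 and ran from 813 to 1175 in the other tags. In CD8 T cells below the effector limit it was 6251 CPM, and 10 of 11 list genes tested were lower in the effector CD8 T cells.

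Homing receptors held 2 higher and 2 lower genes of 15 tested, with a median ratio of 1.15. Cxcr6, a receptor of tissue-lodged T cells, stood at 420 CPM against 123 in other T cells and 9.42 in NK cells, where it had 1 UMI. By tag it stood at 922 CPM in D4, 560 in U2, 338 in D0, 335 in D1, 322 in U4 and 71.2 in U3. U3 was again the low tag, and without it the ratio to other T cells was 3.34. Cx3cr1 stood at 52.3 against 12.7. Ccr2 was lower, at 125 CPM against 338, and had 0 UMIs in U3. Itgae, the CD103 integrin of epithelial residency, was lower too, with 12 UMIs and a ratio of 0.41.

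The cells held transcripts of NKG2 family receptors and 3 UMIs of Ncr1, with the adaptors Tyrobp and Fcer1g well below their NK levels. Klrd1 stood at 803 CPM, Klrk1 (NKG2D) at 360, Klre1 at 243 and Klrc2 at 125. The Klre1 level was at least 74.0-fold that of CD3-positive other T cells, but those cells had been chosen for holding no UMI of it. Klrk1 was 5.58 times (4.13 to 7.63) and Klrd1 4.45 times (3.70 to 5.37) the CD3-positive other T cells, in each of the 4 tags with at least 20 cells. Without U3 these ratios were 4.10 and 3.58. Ncr1 (NKp46) stood at 546 CPM in NK cells. The adaptors Tyrobp and Fcer1g stood at 161 and 305 CPM, against 2091 and 2440 in NK cells. Hcst, the DAP10 adaptor of NKG2D, did not share this and stood at 751 CPM, against 485 in other T cells and 433 in NK cells. Of the 20 list genes, 2 were higher and 10 lower than in other T cells, with a median ratio of 0.64. With CD3-positive other T cells, 5 of 14 were higher and 1 lower, with a median of 1.66. Against NK cells, 9 of 16 were lower and none higher. The gates barred Ncr1, Klrb1c and Klre1 from CD3-positive other T cells and selected NK cells by them. Calls of these genes within the counts were therefore set by the gates.

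Genes of CD4 and regulatory T cells stood lower, with Foxp3 set to 0 by the rule. Cd4, which the rule did not use, had 1 UMI. Il2ra stood at 43.9 CPM against 191 in other T cells, and Ikzf2 (Helios) at 347 against 783, a ratio of 0.44 that became 0.51 without D1. Of 7 genes tested, 5 were lower and none higher. Of the T cell receptor and signalling genes, 12 of 12 tested lay within 2-fold of other T cells once the rule genes were set aside. Trac, the alpha chain, was seen in 125 cells and stood at 525 CPM against 488.

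A minority of cells held gamma chain transcripts beside the alpha chain. Trgv2 had 51 UMIs in 35 cells and Tcrg-C2 had 40 in 25 cells, with ratios to other T cells of 5.41 (3.35 to 8.92) and 6.99 (3.88 to 13.2). Both were higher in U2, D0 and D1, and in U3 each rested on 1 UMI. Without U3 the ratios were 4.95 and 7.17. Either transcript was seen in 49 cells, of which 36 also held Trac and 1 held Trdc, the delta chain. Trdc was confined to 2 cells of U4, with 10 UMIs. The gamma constant genes are near copies of one another, and the way reads were divided between them is not stated in the sources used here. Variable gene segments gave too few UMIs for a clonal reading: the most frequent, Trbv15, Trav13n-1 and Trav16, had 3 UMIs each.

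Division genes were somewhat higher in the effector CD8 T cells. Mki67 stood at 261 CPM (218 to 311) against 130 in other T cells, and Top2a at 272 against 163. Of 20 replication and mitosis genes, 4 were higher than in other T cells and none lower, with a median ratio of 1.53. Without U3 the Mki67 ratio was 1.91, under 2-fold. Mki67 stood at 643 CPM in U4, 325 in U2, 201 in D1, 139 in D0, 83.8 in D4 and 28.5 in U3. The summed list ran from 2094 CPM in D4 to 10639 in U4. After each cell was thinned to 1000 UMIs, 25 of 206 cells held Mki67 and 26 held Top2a, and 10 held both. These shares of 12.1% and 12.6% compare with 6.83% and 14.5% of keratin cells, so the Top2a share is not above that of keratin cells, which can divide themselves.

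Interferon response genes varied widely between tags. Ifi27l2a stood at 7346 CPM in D0, 2641 in D1, 1876 in U4, 1843 in D4, 1452 in U3 and 1129 in U2. Isg15 stood at 737 CPM in D0 and 751 in D1 but 53.6 in U4. The summed list was 11925 CPM in D0 and between 2416 and 6869 in the other 5 tags. Against other T cells 3 of 13 genes were higher and none lower, with a median ratio of 1.26. Ifit3, one of them, stood at 134 CPM against 60.5, and the 3 genes were not higher than 2-fold against CD3-positive other T cells. Ifitm1, a viral entry restriction factor, stood at 975 CPM in U2, 563 in U4, 134 in D1, 119 in D0, 14.2 in U3 and 0 in D4.

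MHC class I, metabolic and interleukin 2 family genes showed little difference. None of 13 MHC class I genes and 1 of 14 glycolysis genes, Hk2 at a ratio of 0.50, passed 2-fold against other T cells, with median ratios of 1.11 and 0.84. None of 13 acetyl-CoA and histone acetylation genes did, with a median of 1.02. Acss2, the target of the inhibitor, had 2 UMIs in the 212 cells, 1 in U3 and 1 in D1, which is 4.18 CPM against 16.2 in other T cells, a ratio of 0.26 (0.03 to 1.05). Acss1, its mitochondrial counterpart, had 5 UMIs and Acly, which makes acetyl-CoA from citrate, had 17. At this depth the Acss2 difference was not detectable. Of 15 interleukin 2 family genes, 2 were lower, Il7r and Il2ra, and none higher.

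To set shares of cells side by side, every cell was reduced at random to 1000 UMIs, and 6 of the 212 cells were too shallow for this. Gzmb was seen in 36.9% of the thinned effector CD8 T cells (30.3 to 43.9, and 43.4% before thinning), 17.8% of CD3-positive other T cells and 58.4% of the wider NK set. Gzmb is a rule gene, so these shares are a description, and the gate itself holds CD8 T cells below the limit to at most 1 such UMI. Free RNA in droplets was gauged in 600 keratin cells, which should lack these genes. Gzmb was seen in 0.17% of them (1% before thinning) and Ifng in none, with an upper limit of 0.61%. Ccl5 was seen in 4.2% of keratin cells (20.7% before thinning). Their median was 28324 UMIs before thinning, so the thinned shares can understate free RNA in shallower cells. Klf2 was seen in 40.0% of keratin cells, which may express it themselves, so that share cannot gauge free Klf2 RNA. Among thinned effector CD8 T cells Klf2 was seen in 20.4%, from 0% in U4 and D4 and 9% in U2 to 65.6% in U3. The part of free RNA in these shares was not tested. Ifng was seen in 26.2% of effector CD8 T cells, Pdcd1 in 20.4% and Cxcr6 in 33.5%.

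Effector transcripts met in part of the cells only. Of the 76 thinned cells with Gzmb, 31 held Ifng (40.8%, 29.6 to 52.7), against 23 of 130 without Gzmb (17.7%, 11.6 to 25.4). Without U3 these shares were 41.9% and 23.0%. Tags were pooled here, and U2 gave 47 of the 76 cells with Gzmb and 37 of the 54 with Ifng. Shares within a tag were not compared, so differences between samples are not set apart. Ccl4 was seen in 22 of 34 cells with Ccl3 and in 28 of 172 without it. Tcf7 was seen in none of the 76 cells with Gzmb, with an upper limit of 4.74%. It was seen in 18 of 130 cells without Gzmb, or 11 of 100 when U3 is left out. Pdcd1 was seen in 21.1% of cells with Gzmb and 20% of cells without, with intervals of 12.5 to 31.9 and 13.5 to 27.9.

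**Figure D5:**
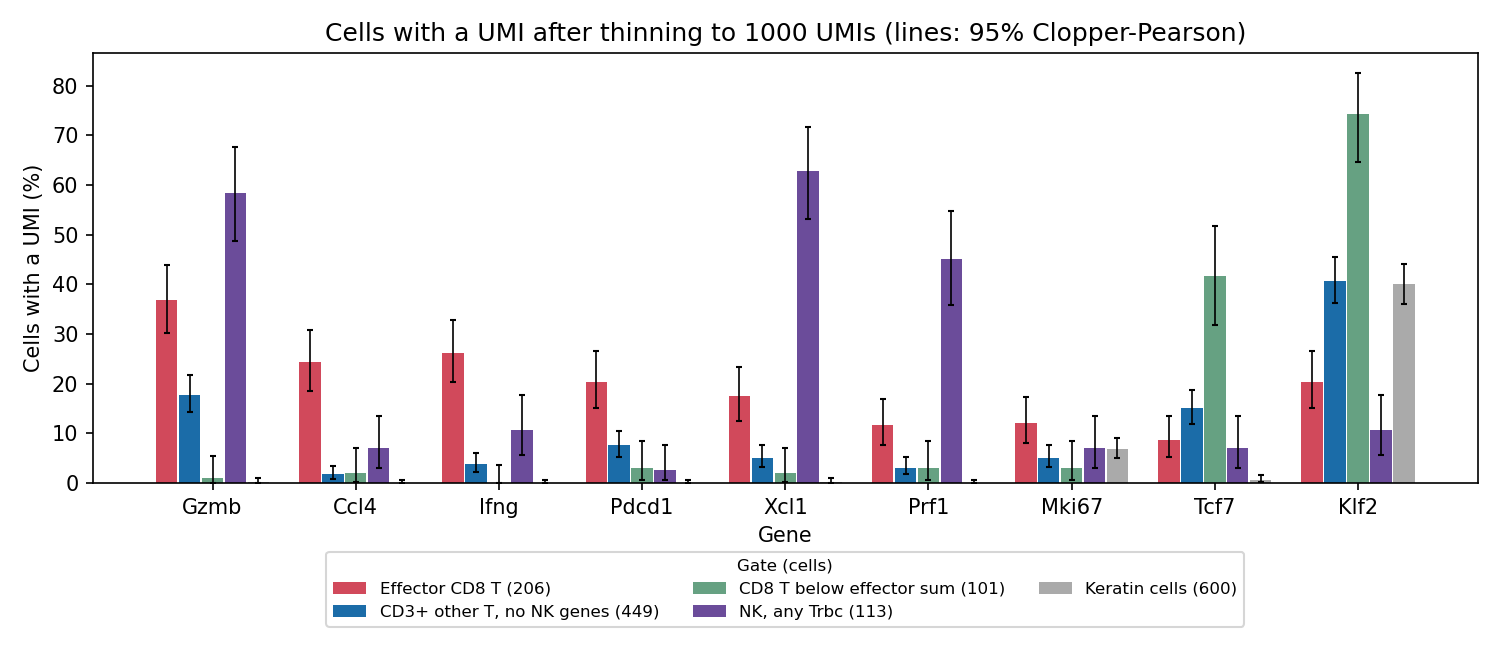
Percent of cells with at least 1 UMI of 9 genes after thinning each cell to 1000 UMIs, by population, with the number of cells in the legend; lines are exact Clopper-Pearson 95% intervals. Gzmb was seen in 36.9% of effector CD8 T cells, and Klf2 in 20.4%, below the 40.0% of keratin cells.

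Markers of cell types other than NK cells were low, with 2 exceptions tied to a few cells. Summed macrophage markers stood at 598 CPM, from 0 in U4 and D4 to 3741 in D1, and 2 cells held 90.6% of all Lyz2 UMIs. Summed dendritic markers ran from 98.4 CPM in U2 to 1730 in D1, where Cd74, with 91.3% of its UMIs in 2 cells, set the level, while Flt3, Xcr1, Clec9a and Cd209a were at 0. Epithelial markers stood at 159 CPM, from 26.8 in U4 to 251 in D4, with Krt7, Krt19 and Cldn4 at 0, and 21 cells held the 1 keratin UMI the rule allows. B cell markers stood at 60.7 CPM, from 0 to 185, with Cd79a and Ms4a1 at 0. Neutrophil and mast cell markers stood at 14.6 CPM, red cell and platelet markers at 41.8 and fibroblast and endothelial markers at 134. NK markers were present in every tag, from 83.8 CPM in D4 to 670 in U4. They stood at 366 CPM against 3618 in NK cells, which were selected by Ncr1, Klrb1c and Klre1 of this same list. In the comparison, 2 of the other T cells held 84.0% of the Col1a1 UMIs, and 2 held 98.2% of the Saa3 UMIs. The pair was taken for each gene apart, so the cells need not be the same. The Saa3 ratio was 1.10 without U4, and the Col1a1 ratio was 0.057 without U3. The low ratios of these genes thus rest largely on few cells. The part of these other-cell transcripts in the results was not tested.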

How the data were processed

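Single tumour cells of 6 pooled samples ran on 1 droplet lane, which gave 1 matrix of raw UMI counts of 31053 genes and 6 antibody tags over 9747 barcodes. Per the submitters' processing notes, the tool was Cell Ranger and the build mm10. The deposited counts were written by matrix software 3.1.0, per the file headers. The limits of 500 genes and 15% mitochondrial UMIs left 8784 barcodes. Seurat 5.3.0 (HTODemux, quantile 0.99) in R 4.3.3 found more than 1 tag on 865, which were left out, 1 tag on 5590 and none on 2329. Doublets of cells with the same tag or no tag remain. Median depth ran from 1375 UMIs per cell in CD8 T cells below the effector limit to 3605 in the wider NK set.

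UMIs were summed per population and scaled to CPM, with exact Poisson 95% intervals. Ratios were called at 2-fold among genes with at least 30 UMIs, with 3 UMIs as the limit for a count of 0. The pool is 1 sample without arms, so no test between conditions was made. PCR and sampling of animals add error that the intervals do not hold. Named genes were the 5 most abundant genes of every pathway list and 2 of every other-cell list, rule genes, Acss2, Acss1 and Acly, the 10 genes at either end of the ratios to other T and NK cells, the 3 most abundant Trbv and Trav genes and the 3 genes that varied most between tags. Other members were named after their values were seen. Tag levels were described per tag. The members, lists and tests were chosen with earlier results of these data known. The scripts (Python 3.11.15, numpy 2.4.6, scipy 1.17.1, pandas 2.3.3, matplotlib 3.10.9) were tested on simulated data.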

Additional observations from a re-analysis of the deposited data

Results flagged for a closer look

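Among 34 values compared over the 4 tags with at least 20 effector CD8 T cells, 4 had a tag whose gap to its nearest neighbour exceeded Dixon's 95% value for 4 samples. Chance gives about 1 in 20 such gaps. The summed level of costimulatory receptors was 925 CPM in U3, against 1582 in the nearest tag. The summed level of naive, memory and progenitor genes was 4029 CPM in U3, against 1175 in the nearest. Glycolysis and lactate transport genes summed to 1822 CPM in U3, against 3583 in the nearest. The gamma delta and innate-like genes summed to 159 CPM in D0, against 81.3 in the nearest, and this rests on 8 UMIs. U4, with 14 cells and a higher gamma delta level, was not among the tags compared. Why these tags stand apart was not tested.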

How the results depend on the processing

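Of 6516 ratios of named genes and lists over the alternatives, 5583 kept their value within the counting interval, 888 moved and 45 changed direction. With at least 1000 genes per barcode, 74 effector CD8 T cells remained, 27.7% of T cells, with 173 genes higher and 56 lower than in NK cells. The share of T cells was 19.9% with at least 2 CD8 UMIs, 29.0% with an effector sum of at least 1 and 19.5% with at least 5. Averaging over cells gave 218 higher genes against other T cells. Thinning gave 224 lower against other T cells and 139 higher and 54 lower against NK cells. A minimum of 10 UMIs gave 374 higher and 1057 lower against other T cells and 816 and 493 against NK cells, and a minimum of 100 gave 42, 97, 52 and 25. Against CD8 T cells below the effector limit 477 were higher and 115 lower, and against CD4 T cells 214 were lower. Leaving out each tag in turn gave 109 to 205 cells, 17.3% to 29.2% of T cells, 118 to 149 genes higher and 300 to 425 lower than other T cells, and 132 to 274 higher and 66 to 104 lower than NK cells. The share was highest without U3 and lowest without U2.

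Ratios that changed direction were as follows. Against CD3-positive other T cells they were Fcer1g 1.53, Kit 1.91, Gzmc 2.69, Gzmf 5.42, Gzma 3.19, Tyrobp 1.46, Irf8 3.30 and the granule list 1.31. Against CD4 T cells they were Fcer1g 2.59, Kit 1.95, Dcn 1.19, Col3a1 1.56, Gzmc 17.5, Gzmf 2.21, Gzma 1.95, Tyrobp 1.5, Irf8 3.90 and the granule list 1.18. Against CD8 T cells below the effector limit they were Cd8b1 0.787, Ctla4 4.36, Tnfrsf9 2.29, Icos 1.24, Fcer1g 3.1, Ikzf2 1.28, Il2ra 1.02, Ikzf4 2.72, Kit 1.70, Gzmc 2.55, Gzmf 5.78, Gzma 3.40, Tyrobp 13.1, Irf8 2.12, Ifitm2 1.72, Ccr2 20.4 and the granule list 2.52. Ratios to other T cells were Dcn 1.42 with no keratin limit and, for Saa3, 0.0267 to 1.10 with a tag left out, the highest without U4. With each tag left out in turn, ratios to NK cells ran from 0.910 (without U2) to 3.61 for Ifitm1, 0.992 (without U3) to 3.69 for Klf2, 0.00684 to 2.83 (without D0) for Gzmf and 0.368 (without D1) to 4.28 for Cd74. The Crebbp ratio to NK cells was 0.99 after thinning. With a T cell receptor sum of 0 in NK cells Crebbp was 0.899 and Apoe 1.33, and with the wider NK set Ifitm1 was 0.472. The cause was not tested. The comparison populations of CD3-positive other T cells and the wider NK set were chosen after the data were seen. No paired test was made, because the populations were chosen by genes of the same cells and no arm is known. Directions within a tag are given for some genes, while the main ratios pool the tags. Counts of a few UMIs limit Acss2, Csf2, Il2 and most variable gene segments.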
